A study of Mus musculus with 4 samples.

Results

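The genes described here are the liver X receptors, their best known targets in macrophages and the enzymes of cholesterol efflux and lipid handling that go with them: Nr1h2, Nr1h3, Abca1, Abcg1, Apoe, Mylip, Lpcat3, Srebf1, Scd2 and Lpl. They were chosen by symbol from a written list, and all 10 were found among the 17194 symbols of the count table and among the 15651 genes that passed the filter on low counts. The libraries come from primary mouse bone marrow-derived macrophages given RANKL, the cytokine that turns such cells into osteoclasts, and were made from polyadenylated RNA on day 2. The siHells group (n = 2) received an siRNA against Hells, a chromatin remodelling ATPase, and the siControl group (n = 2) carries the control siRNA label. RANKL and the day were shared by both groups, and mouse strain, age, siRNA sequence and the number of animals or cultures are not stated. The series title puts Hells, Nr2f2 and mitochondria at the centre of the study, and the comparison asked here is how the transcripts of cholesterol export differed between siHells and siControl cells.

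LXR alpha (Nr1h3) and LXR beta (Nr1h2) are nuclear receptors that bind oxysterols and sit on DNA together with a retinoid X receptor. When a macrophage is loaded with cholesterol they switch on ABC transporters and apolipoprotein E, which carry sterol out of the cell, together with Mylip, which marks lipoprotein receptors for degradation, and genes of fatty acid and phospholipid synthesis. In osteoclast precursors, membrane cholesterol is known to matter for fusion and survival.

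The receptor pair binds a direct repeat of AGGTCA-like hexamers with 4 bases between them, called DR4. Promoter windows of RefSeq on GRCm38.p6, from 250 bases before to 50 bases after a start, were on hand for 7 of the 10 genes in 12 windows; Abcg1, Scd2 and Lpl were not among them. DR4 was searched on both strands as 2 AGGTCA hexamers, with up to 3 mismatches in the 12 fixed letters, and a match at that level occurred in 21.9% of 32544 distinct promoter windows. Of the 12 windows, those of Abca1 and of the start of Srebf1 that lies furthest downstream held such a match, each with 3 mismatches. Both are shown because they were the only matches to DR4 in the 12 windows at that level; capitals mark the 12 fixed letters of the repeat.
Abca1 DR4: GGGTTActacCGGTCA
Srebf1 DR4: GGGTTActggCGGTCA
The matches shared all 12 fixed letters and 2 of the 4 spacer letters. Both lie on the strand opposite to the gene, at bases -67 to -52 from the Abca1 start and at bases -182 to -167 from the Srebf1 start. In the full windows, written 5′ to 3′ along the gene, the same letters are in capitals and read as the reverse complement.
Abca1, chr4:53159846-53160145, minus strand: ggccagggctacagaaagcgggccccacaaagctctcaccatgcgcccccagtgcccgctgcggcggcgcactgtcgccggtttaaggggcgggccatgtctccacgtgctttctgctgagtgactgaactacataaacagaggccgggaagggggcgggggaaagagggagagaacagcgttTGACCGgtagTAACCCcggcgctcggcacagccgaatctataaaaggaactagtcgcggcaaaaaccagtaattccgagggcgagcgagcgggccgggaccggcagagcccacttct
Srebf1, chr11:60210422-60210721, minus strand: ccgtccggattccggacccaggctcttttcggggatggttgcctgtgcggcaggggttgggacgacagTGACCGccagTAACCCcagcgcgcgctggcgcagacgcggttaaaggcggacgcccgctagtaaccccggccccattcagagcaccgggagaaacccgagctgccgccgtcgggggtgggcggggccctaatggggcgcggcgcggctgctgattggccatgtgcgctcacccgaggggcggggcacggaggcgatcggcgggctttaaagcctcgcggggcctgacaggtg
Other motifs were searched exactly, on both strands. The sterol regulatory element written TCACNCCAC, found in 1.24% of all windows, was in none of the 12. The E-box CACGTG, found in 7.17% of all windows, was in that of Abca1. The GC box GGGCGG, found in 35.9%, was in windows of Abca1, Mylip, Lpcat3 and Srebf1. These are matches of letters in a window and say nothing of binding.

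Total counts ran from 55012697 to 55642819 in siHells and from 48873635 to 53502523 in siControl. Hells itself, the check of the knockdown, had 823 and 785 counts in siHells against 1613 and 1501 counts in siControl, a log2 fold change of -0.99 (SE 0.068). Levels are CPM, counts scaled to library size, here with TMM factors, fold changes are siHells over siControl, and a gene was called at an adjusted p under 0.05 by edgeR's quasi-likelihood fit, adjusted by Benjamini-Hochberg across every gene tested. At that threshold 58.5% of all genes tested were called, 29.0% higher and 29.5% lower, so a call by itself sets few genes apart. The labels do not say whether the 2 libraries of a group came from separate cultures. The p-values therefore measure the spread between these libraries, which may be technical. With 2 residual degrees of freedom, the fit draws each gene's spread toward that of other genes, and does not take it from that gene's libraries alone. In bulk RNA, fewer cells of a type and less RNA per cell cannot be told apart.

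Of the 10 genes, 6 were called higher in siHells (Apoe, Mylip, Nr1h3, Scd2, Abca1 and Nr1h2) and 2 lower (Lpl and Abcg1), while Lpcat3 and Srebf1 were not called. The groups did not overlap for the 8 called genes, as they did not for 78.5% of all genes tested. Apoe and Lpl passed 2-fold, as 12.3% of all genes did in either direction. The median log2 fold change was 0.25 over the 10 genes and -0.004 over all genes tested, and the median size of the change, without its sign, was 0.38 over the 10 genes and 0.34 over all genes. The group is therefore mixed in direction and, apart from Apoe, Lpl, Abcg1 and Mylip, its changes were no larger than 1.5-fold.

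**Figure D1:**
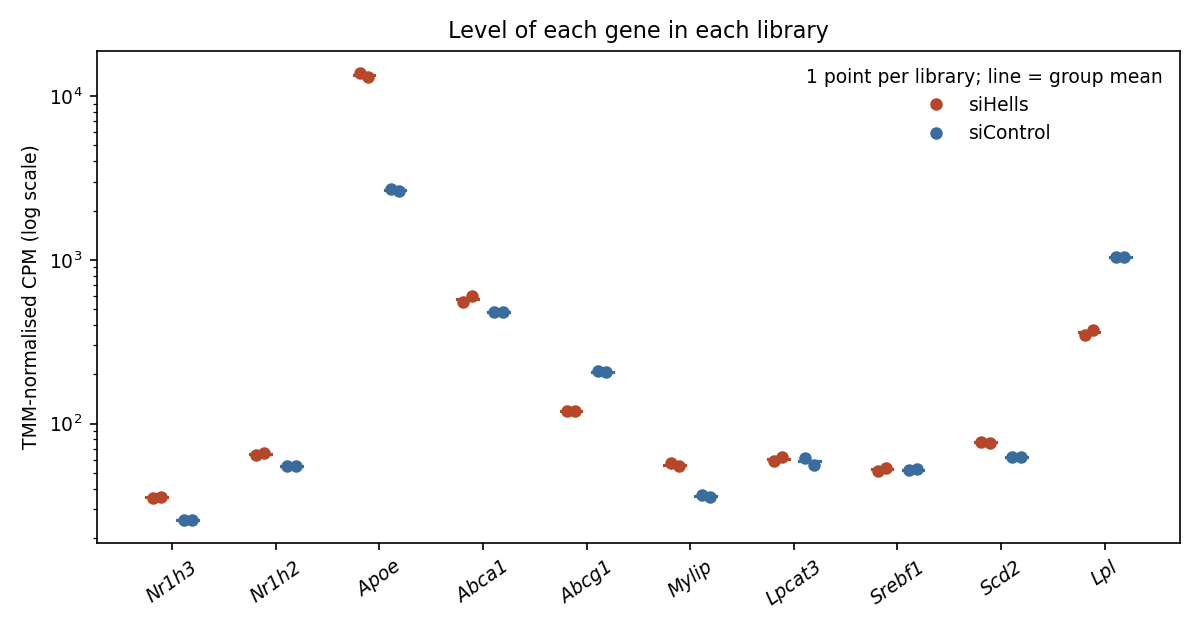
TMM-normalised CPM of the 10 genes on a log axis, with 1 point per library and a line at the group mean, siHells left of siControl (n = 2 each). Apoe was at 13032 CPM or more in the siHells libraries and at 2720 CPM or less in the siControl libraries, and Lpl and Abcg1 were lower in both siHells libraries.

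**Figure D2:**
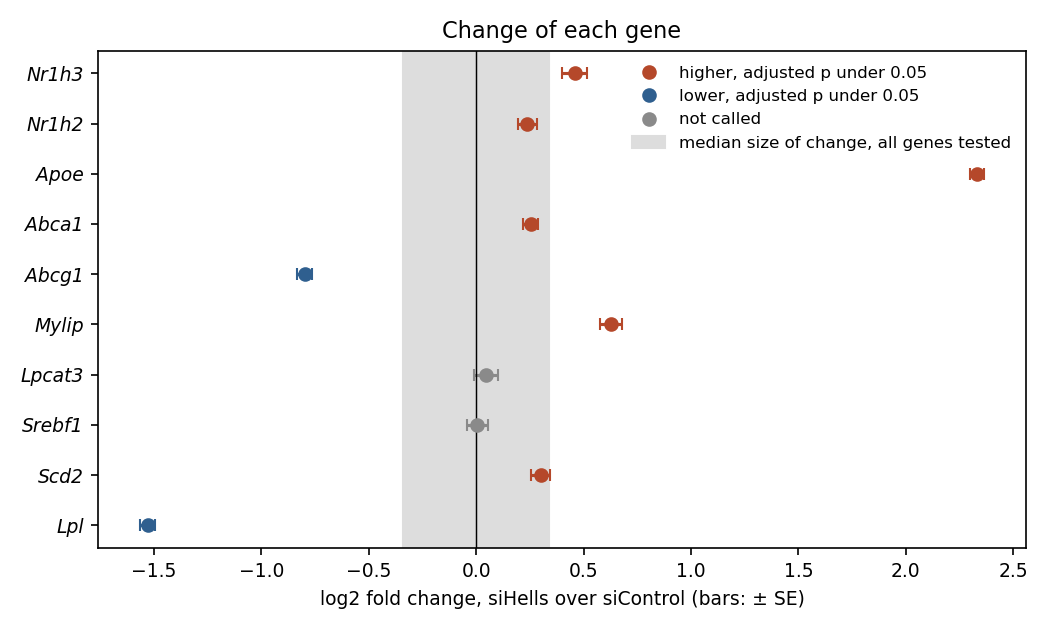
Log2 fold change of each gene, siHells over siControl, with bars of ± SE, coloured by the call. The grey band spans the median size of the change over all genes tested, 0.34 to either side of 0; Apoe, Mylip and Nr1h3 lie above it and Abcg1 and Lpl below it.

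Both receptors were slightly higher. Nr1h3, the sterol receptor most tied to macrophages and liver, had 35.03 and 35.69 CPM in siHells against 25.9 and 25.6 CPM in siControl. The siHells libraries were both above both siControl libraries, with 35.4 ± 0.467 CPM in siHells against 25.7 ± 0.246 CPM in siControl (SD, n = 2 each), a difference of 0.46 on the log2 scale (SE 0.059, adjusted p = 6.8e-06). Nr1h2, the receptor made in nearly all tissues, had 64.2 and 65.7 CPM in siHells against 55.0 and 55.1 CPM in siControl, again without overlap. On the log2 scale the difference was 0.24 (SE 0.046, adjusted p = 0.000362), less than the median size of change of all genes. Per kilobase of exon, Nr1h2 was the more abundant receptor in both groups, and the ratio of Nr1h3 to Nr1h2 within a library was 0.728 and 0.724 in siHells against 0.628 and 0.619 in siControl.

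The efflux genes did not move together. Apoe, the apolipoprotein that accepts cholesterol at the macrophage surface, had 749395 and 699227 counts in siHells and 149494 and 130881 counts in siControl. It stood at 13824 and 13032 CPM in siHells against 2720 and 2615 CPM in siControl. Each siHells library was several times above each siControl library, and the means were 13428 ± 560.2 CPM in siHells and 2668 ± 73.8 CPM in siControl (SD, n = 2 each). Apoe rose 5.03-fold (log2 fold change 2.33, SE 0.031, adjusted p = 5.01e-15), and 99% of the genes tested had a lower log2 fold change. Apoe alone took 1.35% and 1.27% of all counts in siHells libraries and 0.279% and 0.268% in siControl libraries, with 95% Wilson intervals from 1.268% to 1.35% over the siHells libraries and from 0.2663% to 0.2808% over the siControl libraries that cover counting error only. Even in siControl, 99.9% of genes with a length had a lower level per kilobase than Apoe.

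Abca1, the transporter that loads cholesterol and phospholipid onto lipid-poor apolipoprotein A-I, had 549 and 598 CPM in siHells against 479 and 483 CPM in siControl. All siHells values were above all siControl values, but the siHells libraries differed from each other by more than did the siControl ones. The log2 fold change was 0.25 (SE 0.036, adjusted p = 3.55e-05). It ran from 0.19 to 0.32 with 1 library left out. A fit without a siHells library takes its spread within groups from the siControl pair, which differed less. Such a fit cannot test the change against the spread between the siHells libraries.

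Abcg1, the transporter that passes cholesterol to mature HDL and moves sterol between membranes, went the other way. It had 119.9 and 118.4 CPM in siHells against 208.6 and 205.6 CPM in siControl, and the groups lay far apart relative to their spread. It is encoded at chr17:31057675-31117988 (GRCm38, plus strand). Abcg1 fell 1.74-fold (log2 fold change -0.80, SE 0.035, adjusted p = 2.24e-11). Within a library, Abca1 was 3.22 and 3.55 times as abundant as Abcg1 per kilobase in siHells, against 1.62 and 1.65 times in siControl. That ratio uses no scaling between libraries.

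Mylip, the ubiquitin ligase also called Idol that sends lipoprotein receptors to degradation, had 57.0 and 54.9 CPM in siHells against 36.6 and 35.7 CPM in siControl. It is encoded at chr13:45389742-45412022 (GRCm38, plus strand). Mylip rose 1.55-fold without overlap of the groups (log2 fold change 0.63, SE 0.051, adjusted p = 4.65e-08). Vldlr, the gene of a lipoprotein receptor that is among its substrates, rose by 1.67 on the log2 scale (adjusted p = 3.33e-11).

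Among the 10 genes, those of lipid synthesis had small changes. Scd2, a stearoyl-CoA desaturase that makes monounsaturated fatty acids, had 77.2 and 76.2 CPM in siHells against 62.2 and 62.4 CPM in siControl. The log2 fold change of Scd2 was 0.30 (SE 0.043, adjusted p = 2.39e-05). Scd2 belongs to a family of similar genes, so reads may be split with its relatives. Srebf1, the transcription factor that drives fatty acid synthesis, had 51.4 and 53.5 CPM in siHells against 51.8 and 52.8 CPM in siControl. The groups overlapped, and the log2 fold change of 0.005 had an SE of 0.049 (adjusted p = 0.938). The table gives a single count per symbol, so the transcripts that start at different Srebf1 promoters are summed in it. Srebf1 is overlapped on the opposite strand by Rai1, which is in the table, and strand was not given for the counting.

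Lpcat3, which builds polyunsaturated phospholipids, had 59.2 and 62.3 CPM in siHells against 61.6 and 56.01 CPM in siControl. The groups overlapped, with an estimated log2 fold change of 0.046 (SE 0.054, adjusted p = 0.488). It is overlapped on the opposite strand by Emg1, which fell by 0.34 on the log2 scale (adjusted p = 2.77e-05), so part of a change in either gene's reads cannot be told from the other's without strand. For Lpcat3 and Srebf1 the test did not pass, which does not show that they were equal.

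Lpl, the lipase that frees fatty acids from lipoproteins at the cell surface, had 349 and 375 CPM in siHells against 1045 CPM in each siControl library. The siHells values lay far below those of siControl, with means of 362 ± 18.5 CPM in siHells and 1045 ± 0.0736 CPM in siControl (SD, n = 2 each). It is encoded at chr8:68880491-68907448 (GRCm38, plus strand). Lpl fell 2.89-fold (log2 fold change -1.53, SE 0.033, adjusted p = 8.60e-15), and only 2.5% of genes tested had a lower log2 fold change. Within a library, Apoe was 194 and 170 times as abundant as Lpl per kilobase in siHells and 12.8 and 12.3 times in siControl.

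In level per kilobase of exon, the order in siHells was Apoe, at 6280 CPM per kilobase, then Abca1 (55.3), Lpl (34.6), Nr1h2 (19.4), Lpcat3 (18.6), Mylip (17.3), Abcg1 (16.3), Nr1h3 (14.1), Scd2 (14.0) and Srebf1 (9.31). Between neighbours in that order, the library ranges of Nr1h3 (13.9 to 14.2) and Scd2 (14.0 to 14.1) overlapped, and the lowest Nr1h2 value and the highest Lpcat3 value were both 19.1. In siControl the order was Apoe (1250), Lpl (99.8), Abca1 (46.4), Abcg1 (28.4), Lpcat3 (18.0), Nr1h2 (16.4), Scd2 (11.4), Mylip (11.2), Nr1h3 (10.2) and Srebf1 (9.28), with no overlap between neighbours. Lpl stood behind Abca1 in siHells and ahead of it in siControl, and Abcg1 stood behind Nr1h2, Lpcat3 and Mylip in siHells and ahead of them in siControl. Such orders, and all ratios between genes per kilobase, depend on the exon length used. That length joins all annotated exons and was 10.478 kb for Lpl, and a shorter transcript would place Lpl higher. Which transcripts were present was not tested. The change of a ratio between the groups does not depend on the length.

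Apoe lies on chromosome 7 at 19696109 to 19699188 of GRCm38, in a cluster with the genes of apolipoproteins C-I and C-II, which inhibit and activate lipases. Apoc1 had 316 and 281 counts in siHells against 33 and 13 counts in siControl, a ratio of 12.6 after scaling, with a 95% exact binomial interval of 9.35 to 17.4 that covers counting error only and not the spread between libraries. The change of Apoc1 on the log2 scale was 3.65 (SE 0.25, adjusted p = 6.19e-09), and 4.39 without siControl replicate 1 and 3.21 without siControl replicate 2. Apoc2 had 3330 and 3117 counts in siHells against 408 and 284 counts in siControl, and rose 9.07-fold (log2 fold change 3.18, SE 0.087, adjusted p = 1.57e-13). Both genes are also known LXR targets in mouse macrophages.

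The other genes tested within 100 kb of Apoe did not show that rise. Genes with no count in a library were not analysed, so a rise from no counts would not be seen. Apoc4 was not among the symbols counted. Tomm40, an import pore of mitochondria whose gene is the nearest to Apoe, with 2125 bases between them, fell 1.74-fold with 37.3 ± 0.293 CPM in siHells against 64.9 ± 1.47 CPM in siControl (SD, n = 2 each; adjusted p = 1.58e-09). Relb and Bcam fell by 0.58 and 0.65 on the log2 scale (adjusted p = 9.17e-08 and 0.000621), and Clptm1, Nectin2 and Clasrp were not called, with log2 fold changes of -0.005, -0.074 and 0.093. All neighbours of Apoe, Apoc1 included, were named after their values were seen.

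**Figure D3:**
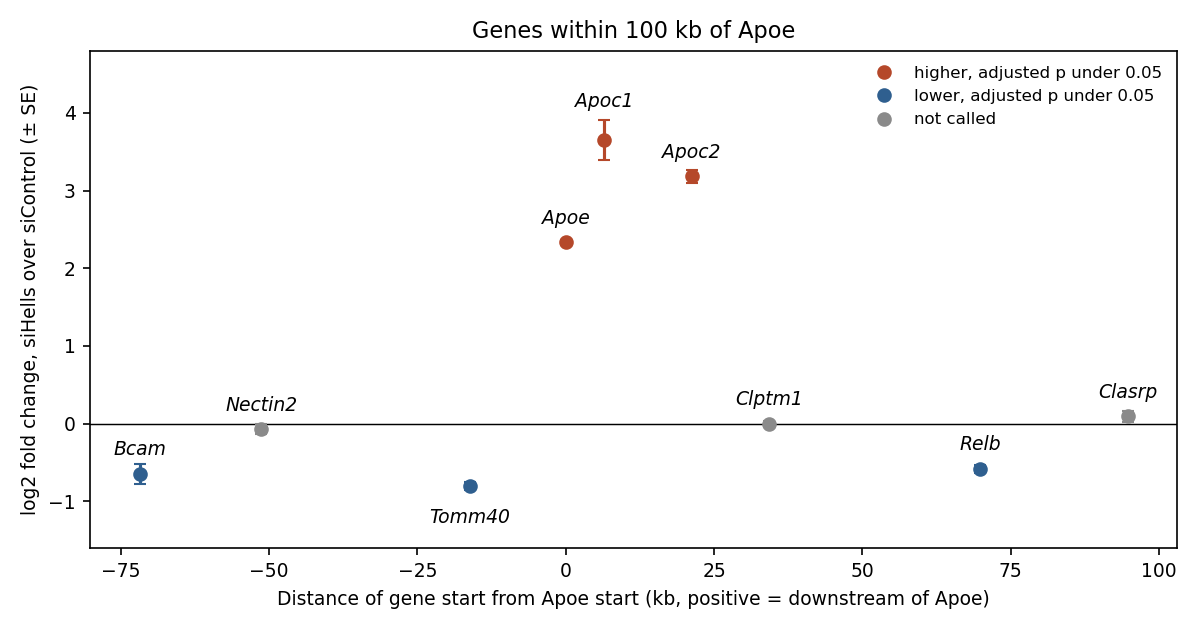
Log2 fold change (siHells over siControl, ± SE) of Apoe and the 8 other genes tested within 100 kb, by the distance between gene starts in kb, positive downstream of Apoe. Apoe, Apoc1 and Apoc2 lie above 2 and all other genes below 0.1, including Tomm40 at -0.80 next to Apoe.

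Around the receptors, most of the partner and coregulator genes that were called rose: 11 of 20 tested were higher, 3 lower and 6 not called. Over all genes tested, 29.0% were called higher and 29.5% lower, and the counts of the gene and marker lists below stand beside the same shares. Ncoa1, a coactivator of nuclear receptors, had 5917 and 6154 counts in siHells against 2328 and 2062 counts in siControl and rose 2.68-fold (log2 fold change 1.42, SE 0.046, adjusted p = 6.97e-13). Rxra, which encodes the DNA-binding partner of the LXRs, had 172 ± 1.90 CPM in siHells against 81.8 ± 2.76 CPM in siControl (SD, n = 2 each) and rose 2.1-fold (adjusted p = 2.64e-12). The SUMO ligase Pias1 and the coactivator Ncoa2 rose by log2 fold changes of 0.89 and 0.59. The second partner gene, Rxrb, was lower by a log2 fold change of -0.15 (adjusted p = 0.00665, and 0.0547 without siControl replicate 2), and the corepressor gene Ncor1 was higher by 0.33 (adjusted p = 5.49e-07). Over these 20 genes the median was 0.20 on the log2 scale. The choice of Rxrb and Ncor1 came after a look at their values.

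Other genes described as LXR targets also went both ways: of 19 tested, 8 were higher, 6 lower and 5 not called. Mertk, a receptor for apoptotic cells, had 21746 and 20997 counts in siHells against 4260 and 4035 counts in siControl and rose 5.01-fold (adjusted p = 1.59e-16). Smpdl3a, a phosphodiesterase, rose 2.23-fold, and the desaturase gene Fads1 rose 2.08-fold. Pltp, the phospholipid transfer protein, fell by 0.13 on the log2 scale (adjusted p = 0.000773), and Cd5l, a secreted macrophage protein, fell by 0.68 (adjusted p = 5.44e-08). Fasn and Scd1, which make and desaturate fatty acids, had log2 fold changes of -0.013 and 0.23 (adjusted p = 0.831 and 0.133). These last 4 genes were picked with their values in view.

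In the wider traffic of cholesterol, 15 of 27 genes tested were higher, 6 lower and 6 not called. Cyp27a1, which makes the LXR ligand 27-hydroxycholesterol, had 97.7 ± 3.92 CPM in siHells against 46.2 ± 2.05 CPM in siControl and rose 2.11-fold (SD, n = 2 each; adjusted p = 4.05e-11). The oxysterol-binding protein genes went both ways: Osbpl11, Osbpl9 and Osbpl5 rose by log2 fold changes of 1.13, 0.74 and 0.77, Osbpl8 fell by 0.98 on the log2 scale (adjusted p = 8.06e-08), and Osbp, Osbpl2 and Osbpl1a were not called. Osbp was called lower with upper-quartile scaling, library totals or without siHells replicate 2 (adjusted p = 0.0349, 0.00753 and 0.0261). Osbpl5, Osbpl8 and those not called were added with their values in view. Lipa, the lysosomal acid lipase that frees cholesterol from its esters, fell 1.51-fold (adjusted p = 2.23e-11). Scarb1, the HDL receptor, had a log2 fold change of 0.81, and Soat1, which esterifies cholesterol for storage, of 0.41 (adjusted p = 2.03e-10 and 2.72e-08); both were picked with their values in view.

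Genes of sterol synthesis and uptake were near balance, with 9 of 31 higher, 12 lower and 10 not called, and a median log2 fold change of -0.03. Lrp1, a large endocytic receptor that binds apolipoprotein E, rose 1.65-fold (adjusted p = 3.22e-12) and Lbr, a sterol reductase of the nuclear envelope, 1.35-fold. Vldlr, given above, was the member with the largest change.

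Beside Lpl, genes of its partners and of fatty acid uptake and storage included 8 higher and 9 lower of 20 tested. Fabp5, a fatty acid carrier, had 6385 and 5950 counts in siHells against 21161 and 19322 counts in siControl and fell 3.37-fold (adjusted p = 3.71e-15). Acsl1, which activates fatty acids, fell 2.94-fold and the scavenger receptor gene Cd36 fell 1.89-fold, while Pnpla2, the triglyceride lipase, rose 1.75-fold. Of 14 acyltransferase genes beside Lpcat3, 2 were higher and 6 lower. Lpcat1, Lpcat2 and Agpat4 fell by 0.60, 0.51 and 0.91 on the log2 scale, and Agpat3 rose by a log2 fold change of 0.67.

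**Figure D4:**
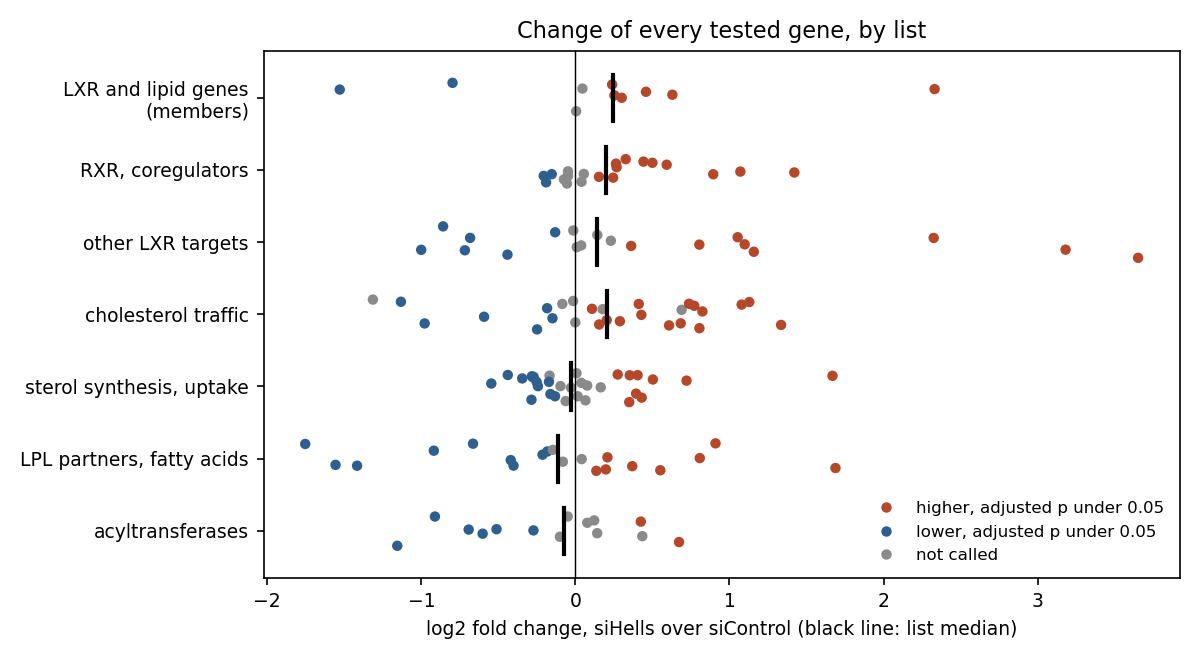
Log2 fold change (siHells over siControl) of every tested gene in the list described here and in 6 lists of related genes, with 1 point per gene coloured by its call and a black line at the list median. All lists hold genes on both sides of 0, and their medians lie between -0.11 and 0.25.

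Levels of cell type markers moved alongside. Of 8 macrophage markers, 7 were higher and 1 lower, and their summed level was 23300 to 24000 CPM in siHells against 15600 to 15700 CPM in siControl. Most of that sum was Lyz2, with means of 17284 CPM in siHells and 11347 CPM in siControl. Mertk is counted both here and among the other LXR targets. All 9 osteoclast markers were lower, at a summed 1380 to 1420 CPM in siHells and 8590 to 8650 CPM in siControl. Of 8 stromal markers tested, 7 were higher and 1 lower, at 1780 to 1800 CPM in siHells against 1000 to 1030 CPM in siControl. Of 8 adipocyte markers, Plin4 was tested, at 1.86 to 3.03 CPM in siHells and 1 to 1.2 CPM in siControl, and the other 7, among them Adipoq and Plin1, were not analysed here because the table holds only genes with a count in every library. Of 8 neutrophil, 8 dendritic, 7 lymphoid and 7 red cell or endothelial markers, 7, 5, 1 and 4 were tested, with summed levels of at most 320, 19.5, 0.56 and 14.3 CPM in any library. Neutrophil markers were 1 higher and 4 lower, summing to 258 to 278 CPM in siHells against 309 to 320 CPM in siControl. Dendritic markers were 2 higher and 1 lower, at 9.08 to 9.5 CPM in siHells against 18.4 to 19.5 CPM in siControl. No lymphoid, red cell or endothelial marker was called. The part of these cell types in the changes of Apoe, Lpl and the other genes was not tested.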

How the data were processed

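For each of 4 libraries the authors deposited raw counts by gene symbol, as whole numbers without normalization. Per the submitters' processing notes, the build was mm10 and the tools included HISAT2 2.1.0, StringTie 2.1.3b, Trimmomatic 0.38, FastQC and edgeR. Annotation release and strand setting were not given in the sources used here, and the labels name both a SMARTer and a TruSeq Stranded kit. The lowest count was 1, so genes with 0 in any library were not analysed here.

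Counts were filtered with filterByExpr (minimum count 10, minimum total 15, which removed 1543 genes), scaled by TMM and tested with edgeR 4.0.16 (R 4.3.3; quasi-likelihood test, robust, group as the only term, 2 residual degrees of freedom) over 15651 genes. The SE is the log2 fold change divided by the root of the F value. Exon length is the union over GENCODE M21 exons, matched by symbol for 14610 genes. The procedure was also run on simulated counts in which few genes changed. That run does not show how the procedure behaves where most genes are called, as here. Replicate libraries were not duplicates: the chi-square between them averaged 6.26 a gene in siHells and 3.45 in siControl, where sampling alone gives 1. Members, gene lists and motifs were chosen with earlier results of these data known. The genes named are the 10 members, Hells and up to 4 genes of smallest p in each of 6 related lists, and others are marked where named; some genes that the rule would name are not reported here. Alternatives were other scalings, filters and tools (DESeq2 1.42.0, limma 3.58.1), a replicate block, thresholds and leaving out libraries.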

Additional observations from a re-analysis of the deposited data

How the results depend on the processing

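Over 15 alternatives, Apoe, Lpl and Abcg1 kept their direction and stayed past the threshold in every setting, with log2 fold changes from 2.258 to 2.377, from -1.603 to -1.476 and from -0.871 to -0.785. Mylip, Nr1h3, Scd2, Abca1 and Nr1h2 did so in all settings other than the test against a 1.5-fold change, where the adjusted p was 0.345 for Mylip, whose estimate lies above 1.5-fold, and 1 for the other 4, whose estimates lie below it. That test left 1261 genes higher and 1096 lower over all genes, 1 of the 10 genes higher (Apoe), and 21 higher and 10 lower over the 6 related lists. Scaling by library totals gave a median log2 fold change of 0.173 over the 10 genes, against 0.246 with TMM, beside a shift of all genes to a median of -0.078; upper-quartile scaling shifted it to -0.037.

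Lpcat3 and Srebf1, not called in any setting, changed sign with other scalings. Lpcat3 went to -0.028 with library totals, and Srebf1 to -0.028 with upper-quartile scaling and -0.068 with library totals. A change of scaling moves the estimates of all genes together, and both genes had small estimates with TMM (0.046 and 0.005). The median of all genes was -0.004 with TMM, -0.037 with upper-quartile scaling and -0.078 with library totals. With 1 library left out, Lpcat3 ran from -0.013 to 0.11, Srebf1 from -0.02 to 0.036, Clptm1 from -0.037 to 0.032, Fasn from -0.045 to 0.023 and Osbpl2, which was 0.003 with DESeq2's size factors or test, from -0.011 to 0.016. A group left with 1 library is assumed to vary like the other, so a gene past the threshold in such a fit gains no support from it. Of 675 values of 45 other genes, 650 kept direction and call, 15 lost the call, 3 gained it and 7 changed sign.

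The groups share replicate numbers, but same-numbered libraries had deviations correlated at 0.039 over 9212 genes, and no label pairs them. A fit with the replicate number as a block called 4502 genes higher and 4586 lower, against 4541 and 4612 without it, and changed none of the calls of the 10 genes.

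With 2 libraries a group, changes near 1.2-fold rest on a small spread.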
